A study of Mus musculus with 6 samples.

Results

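The p53 target genes followed here are 10 genes that the tumour suppressor p53 is known to activate: Cdkn1a, Mdm2, Ccng1, Trp53inp1, Bax, Sesn1, Zmat3, Phlda3, Perp and Aen. Every probe set annotated to exactly 1 of them was taken, where a probe set is the unit of an Affymetrix array that measures one transcript through several short probes. This gave 21 of the 45101 probe sets of the table, for 9 of the 10 genes. No probe set used here is annotated to Bax alone, so Bax was not analysed here. RNA came from NSP cells, grown from mouse brains of stage E12.5, a mid-gestation embryonic stage, plated on coated dishes, split, and infected overnight with a lentivirus. In 3 samples the virus carried an shRNA (a short hairpin RNA that lowers its target transcript) against REST, and in 3 a control shRNA (CTL in the labels), with RNA taken 6 days later. Both groups therefore share the culture, the infection and an expressed hairpin. No uninfected cells are part of the comparison, and the sources used here give neither the strain, nor the number of embryos, nor the hairpin's target site. The design asks what a lowered REST level does to transcripts, and the p53 targets are read here as one group within it.

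p53 is a transcription factor that is held low in unstressed cells because Mdm2, itself a p53 target, marks it for destruction. DNA damage and other stress free p53 from Mdm2, and its targets then stop the cell cycle, start apoptosis or adjust metabolism. In the developing brain the pathway is known for removing or arresting progenitors that carry damaged DNA. REST is a repressor that keeps neuronal genes low outside neurons.

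All values are log2 signals per probe set, so a difference of 1 is a change of 2-fold, and every difference is REST shRNA minus control shRNA. Levels of different probe sets are not comparable with each other. All 21 probe sets had a mean above 3.24, the highest signal of 27 bacterial control probe sets that stand for background, although the dimmest, a Sesn1 probe set at 3.24, lay level with it. The targeted transcript was lower: the brightest of 4 Rest probe sets read 8.63, 7.70 and 8.20 in the REST shRNA arrays, against 8.92, 8.75 and 8.90 in the control arrays. The difference was -0.68 ± 0.25 (SE), and the groups did not overlap in any of the 4. In limma the brightest had an unadjusted p of 0.0298, and the adjusted p was 0.9998 for each of the 4. The knockdown itself therefore did not pass the adjusted threshold of 0.05 used below. Some arrays stood apart from their group. The summed signal of 9 astrocyte markers was 12.66 in REST shRNA array 2, against 14.10 and 13.95 in the other REST shRNA arrays and 13.77 to 14.00 in the control arrays. The mean of 17 cell cycle genes was 5.15 in REST shRNA array 3 and 5.19 in control array 3, and between 6.97 and 8.74 in the other 4 arrays. All 12 neural progenitor markers were above background, but so were all 12 neuron markers, all 9 astrocyte markers and 8 of 9 oligodendrocyte markers, so this does not set progenitors apart from the other neural cells. The progenitor sum was between 14.23 and 14.41 in REST shRNA arrays and between 14.46 and 14.54 in control arrays. The summed signal of 12 neuron markers was 12.75, 12.39 and 12.87 with REST shRNA, against 12.10, 12.06 and 12.33 with control shRNA, so these 2 sums did not overlap between the groups. The markers of these lists did not move as one. Of the neuron markers 9 had a positive difference and 3 a negative one: Elavl4 (-0.21), Dcx (-0.20) and Map2 (-0.10). Of the progenitor markers 10 were negative and 2 positive: Hes1 (0.37) and Nes (0.31). Over all genes 42.8% were negative. With bulk RNA a change in the cells of a type and a change in RNA per cell cannot be told apart. The part of lower REST, a repressor of neuronal genes, in the neuron sum was not tested. Of 8 microglia markers 4 (Aif1, Itgam, Ptprc, P2ry12) had a mean under background and 4 (Cd68, Csf1r, Cx3cr1, Tyrobp) above it, with sums of 6.35 to 6.51 in REST shRNA arrays and 6.37 to 6.76 in control arrays. Aif1 read 3.99, 2.83 and 3.46 with REST shRNA, against 2.22, 2.50 and 2.48 with control shRNA. Its groups did not overlap, and 4.91% of all genes were likewise higher without overlap. Aif1 was above background in REST shRNA arrays 1 and 3. Cd68 went the other way: it read 3.75, 4.61 and 4.33 with REST shRNA, against 4.61, 5.72 and 4.67 with control shRNA. Cd68 was lower in all 3 same-numbered pairs, as were 8.77% of all genes. Of 8 endothelial and pericyte markers 4 (Pecam1, Cdh5, Tek, Cldn5) had a mean under background and 4 (Kdr, Rgs5, Pdgfrb, Cspg4) above it, with sums of 8.97 to 9.38 in REST shRNA arrays and 8.89 to 9.42 in control arrays. These sums came mostly from Cspg4, which is also among the oligodendrocyte markers and had means of 8.81 with REST shRNA and 8.83 with control shRNA. Kdr (3.86 and 3.89) and Rgs5 (3.36 and 3.64) lay near background.

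No p53 target passed the test between REST shRNA and control shRNA, and differences were mostly small and negative. With limma over all 45101 probe sets, 0 probe sets were called at an adjusted p under 0.05 (0% of the table), and 0 of the 21 member probe sets were. At an unadjusted p under 0.05, 869 probe sets of the table were lower (1.93%) and 692 higher (1.53%). Of the 21 member probe sets, 2 were lower at that level and 0 higher. These 2 were 1 probe set of Trp53inp1 and 1 of Ccng1. The adjusted p was 1.00 for each of the 21. Differences were negative for 16 of the 21, where 47.4% of all probe sets were negative. Taking the brightest probe set of each gene, 7 of 9 genes were negative, with a median of -0.30, beside 42.8% negative and a median of 0.04 over 18194 genes. At this gene level 1 of 9 was lower at an unadjusted p under 0.05 (1.04% of all genes) and 0 higher (1.69%). The part of the lower progenitor and higher neuron marker sums in these differences was not tested. The median over the 9 genes was -0.34, -0.19 and -0.02 within the arrays numbered 1, 2 and 3. Leaving out REST shRNA array 1 gave a median of -0.004, and leaving out REST shRNA array 2 gave -0.48, so the size of the shift rested on single arrays. The 95% interval held 0 for 19 of the 21 probe sets. It excluded a lowering of 2-fold or more for 10 and a rise of 2-fold or more for 13, so for many members a change of that size in one direction remains within the error.

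**Figure D1:**
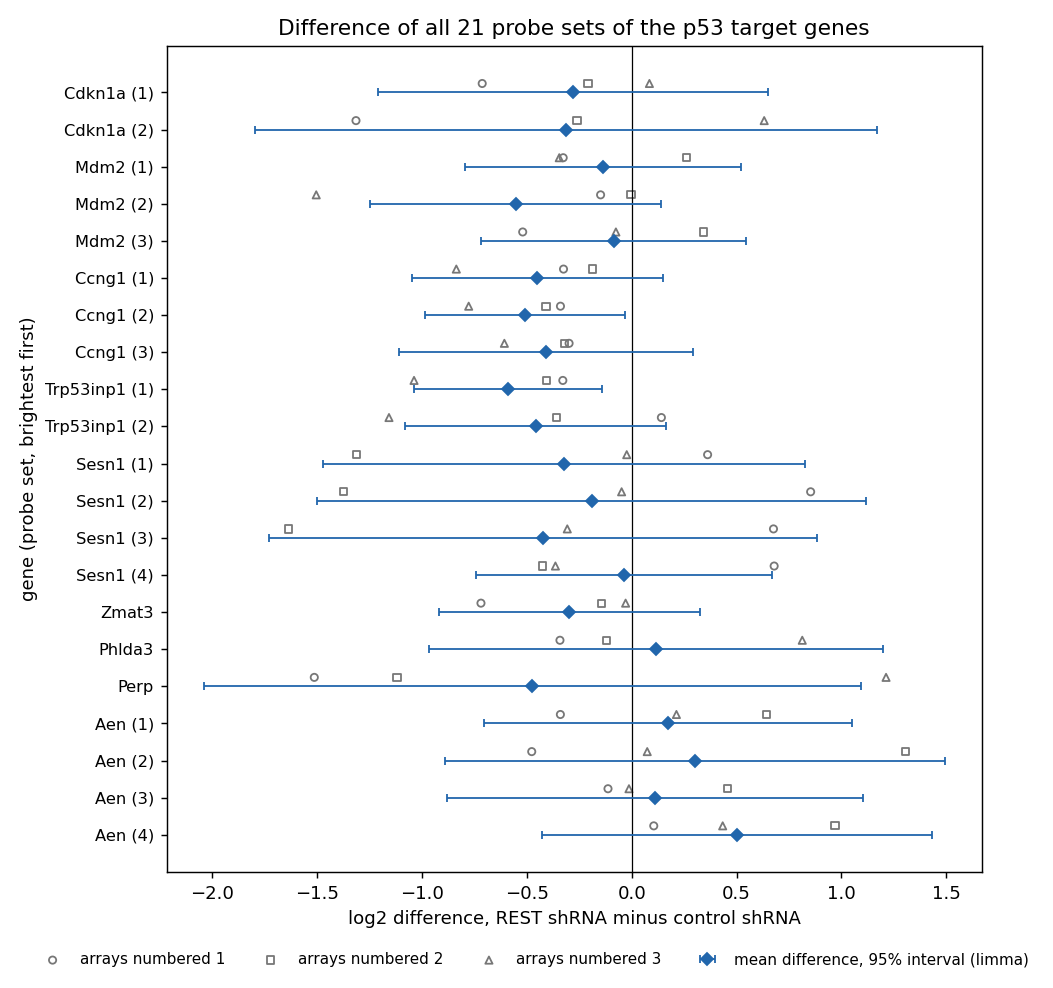
The log2 difference, REST shRNA minus control shRNA, is plotted for all 21 probe sets (diamonds, with the 95% interval of limma as bars), with the difference within each same-numbered pair of arrays as open symbols. The intervals of 19 probe sets cross 0, and the 3 Ccng1 probe sets lie left of 0 in all 3 pairs.

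Cdkn1a (chr17:29090979-29100722, RefSeq GRCm38.p6, as for the positions of the other genes) encodes p21, the inhibitor of cyclin-dependent kinases through which p53 stops the cell cycle. Its brighter probe set read 9.72, 11.00 and 10.27 in REST shRNA arrays 1, 2 and 3, against 10.43, 11.21 and 10.18 in the control arrays. The groups overlapped almost fully, and in both groups array 2 was the highest. The difference was -0.28 ± 0.39 (SE), or 82.4% of control, with an unadjusted limma p of 0.500 and an exact two-sided permutation p of 0.6, where 0.1 is the smallest that 3 against 3 arrays allow. Within the pairs it was -0.71, -0.21 and 0.08, so pair 3 went the other way. The second probe set read 7.35, 9.55 and 8.87 with REST shRNA and 8.67, 9.81 and 8.24 with control shRNA, and followed the first over the 6 arrays (Pearson r = 0.967). Without REST shRNA array 1 the differences of the 2 probe sets were 0.03 and 0.31, both positive, and without control array 2 they were 0.02 and 0.14.

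Mdm2 (chr10:117688875-117710758) encodes the ubiquitin ligase that closes the feedback loop on p53, and its 3 probe sets differed in pattern. The brightest read 8.38, 9.19 and 9.04 in REST shRNA arrays and 8.70, 8.93 and 9.38 in control arrays, a difference of -0.14 ± 0.28 (SE). The second read 7.61, 7.68 and 7.03 with REST shRNA, against 7.76, 7.69 and 8.53 with control shRNA. Its groups did not overlap, although the highest REST shRNA value and the lowest control value were 7.683 and 7.686. The difference of -0.55 ± 0.29 came mainly from pair 3 (-1.50, against -0.15 and 0.00 in pairs 1 and 2). Groups without overlap and lower in REST shRNA were found for 3 of the 21 member probe sets, 1 each of Mdm2, Ccng1 and Trp53inp1, beside 3.89% of all probe sets, and higher for 0, beside 4.35%. Among the brightest probe sets of the 9 genes it was lower for 1, Trp53inp1 (2.65% of all genes), and higher for 0 (4.91%). The third Mdm2 probe set differed by -0.08 ± 0.27. Correlations between the Mdm2 probe sets over the arrays ranged from 0.130 to 0.822.

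Ccng1 (chr11:40748552-40755309) encodes cyclin G1, a p53 target that works with a phosphatase to activate Mdm2. It was lower in REST shRNA in every same-numbered pair on all 3 of its probe sets. The brightest read 10.26, 10.55 and 9.64 in REST shRNA arrays, against 10.58, 10.73 and 10.47 in control arrays. REST shRNA array 3 was the low point, and REST shRNA array 2 lay inside the control range. The difference was -0.45 ± 0.25 (SE), or 73.2% of control, with an unadjusted p of 0.118. The second probe set read 8.98, 9.20 and 8.60 with REST shRNA and 9.32, 9.61 and 9.37 with control shRNA, with no overlap. It differed by -0.51 ± 0.20 (95% CI -0.99 to -0.03, unadjusted p = 0.0399, adjusted p = 1.00, limma). The third differed by -0.41 ± 0.29. Lower in all 3 pairs held for 6 of the 21 member probe sets, 3 of them of Ccng1 and 1 each of Mdm2, Trp53inp1 and Zmat3, beside 11% of all probe sets. At gene level 3 of 9 (Ccng1, Trp53inp1 and Zmat3) were lower in all pairs, beside 8.77% of all genes. Probe sets of 1 gene read the same RNA and are not independent. The difference of the brightest Ccng1 probe set was -0.19 without REST shRNA array 3. That of the second was -0.35 without it, with an unadjusted p of 0.113.

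The sequences before the starts of Cdkn1a and Ccng1 are shown because they alone, among the members with a RefSeq promoter entry, hold a close match to the p53 response element. The search covered 250 bases before each annotated start, on both strands, for the 20-base p53 response element consensus without spacer, allowing 1 mismatch. RefSeq (GRCm38.p6) gave 10 such windows for 7 of the 10 genes, Cdkn1a, Mdm2, Ccng1, Bax, Sesn1, Phlda3 and Aen. A match was found in 2 of these windows, and in 25 of all 32851 windows (0.0761%). The best stretch of the other 8 windows had from 3 to 6 mismatches, which says only that the letters are not in these windows. Both sequences run 5′ to 3′ on the strand of the gene, and capitals mark the match.
Cdkn1a, chr17:29090729-29090978, plus strand: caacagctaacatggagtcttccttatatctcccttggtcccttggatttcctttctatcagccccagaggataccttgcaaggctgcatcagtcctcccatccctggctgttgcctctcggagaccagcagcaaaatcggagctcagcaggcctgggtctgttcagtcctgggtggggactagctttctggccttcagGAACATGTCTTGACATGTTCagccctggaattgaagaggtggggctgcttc
Ccng1, chr11:40755310-40755536, minus strand: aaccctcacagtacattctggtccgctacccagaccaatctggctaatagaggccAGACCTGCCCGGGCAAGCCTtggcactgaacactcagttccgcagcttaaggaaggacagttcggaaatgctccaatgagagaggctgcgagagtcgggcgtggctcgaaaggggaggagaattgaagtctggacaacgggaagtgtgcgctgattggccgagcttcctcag
The Cdkn1a match, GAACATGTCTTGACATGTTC, lies at chr17:29090928-29090947 and begins 51 bases before the upstream one of 2 annotated starts, which are 2790 bases apart. The Ccng1 match, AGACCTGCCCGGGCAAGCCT, lies at chr11:40755462-40755481 and begins 195 bases before the start used. The Ccng1 stretch ends where the annotated gene begins. Both matches are upstream of the gene and so outside exons, introns and UTRs. Both genes that share this feature had a negative mean difference, as did 7 of the 9 measured genes. Mdm2 and Sesn1, whose windows hold no such match, were also negative on their brightest probe sets. Ccng1 was lower with REST shRNA in each pair, and Cdkn1a in pairs 1 and 2 only. Whether the 2 genes differ from each other, and any part of the matches in this, was not tested.

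Trp53inp1 (chr4:11156441-11174379) encodes a stress protein that cooperates with p53 in arrest and apoptosis and also acts in autophagy. It had the smallest p of the members. Its brighter probe set read 10.07, 9.85 and 9.60 in REST shRNA arrays, against 10.40, 10.26 and 10.64 in control arrays. All 3 REST shRNA arrays lay below all 3 control arrays. The difference was -0.59 ± 0.19 (SE, 95% CI -1.04 to -0.14), or 66.4% of control, with an unadjusted p of 0.0172 and an adjusted p of 1.00 in limma. Within the pairs it was -0.33, -0.41 and -1.04, so it was larger in pair 3. It kept its sign under each of 16 alternatives, from -0.37 to -0.72. Some of these, such as the replicate block, change only the error or the probe sets kept. Those could not move the difference. The second probe set read 7.78, 7.49 and 6.84 with REST shRNA and 7.64, 7.85 and 8.00 with control shRNA, so REST shRNA array 1 lay inside the control range, and it differed by -0.46 ± 0.26. The 3′ minus 5′ signal of the Gapdh control probe sets, a sign of RNA quality, was 1.93, 1.93 and 2.25 in REST shRNA arrays and 1.94, 1.72 and 2.87 in control arrays, highest in control array 3. Without control array 3 the Trp53inp1 difference was -0.49 (unadjusted p = 0.0571), and without both arrays numbered 3 it was -0.37 (unadjusted p = 0.122).

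Sesn1 (chr10:41810574-41908436) encodes sestrin 1, which limits oxidative damage and restrains growth signalling through mTORC1. Its brightest probe set read 10.35, 8.34 and 9.86 in REST shRNA arrays, against 9.98, 9.66 and 9.88 in control arrays. REST shRNA array 2 was far below every other array, while REST shRNA array 1 was the highest of all. The mean difference of -0.32 ± 0.48 (SE) therefore describes no single pair: it was 0.36, -1.31 and -0.02 in pairs 1, 2 and 3. All 4 Sesn1 probe sets were lowest in REST shRNA array 2, and all 4 were positive in pair 1. Without that array the differences were 0.26, 0.48, 0.22 and 0.23, so the sign of all 4 turned. The same array had the low astrocyte marker sum given above, and Sesn1 followed the mean of those markers over the 6 arrays (r = 0.973, a description over arrays that share culture and hybridisation). Both were lowest in REST shRNA array 2, and this correlation was not computed without it. REST shRNA array 2 stood apart in other lists too. Its oligodendrocyte marker sum was the lowest, at 13.04, against 13.80 and 14.10 in the other REST shRNA arrays and 13.45 to 13.80 in control arrays. Its mean of the 17 cell cycle genes was the highest, at 8.74. The part of the cell make-up in the Sesn1 difference was not tested.

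Zmat3 (chr3:32334792-32365665) encodes an RNA-binding zinc finger protein that is induced by p53. It read 8.35, 9.26 and 9.05 in REST shRNA arrays, against 9.06, 9.40 and 9.08 in control arrays. It was lower in all 3 pairs (-0.72, -0.14 and -0.03), but in pairs 2 and 3 by little, and the groups overlapped. The difference was -0.30 ± 0.26 (SE), with an unadjusted p of 0.297, and -0.03 without REST shRNA array 1.

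The last members act in or around apoptosis. Phlda3, a pleckstrin homology protein that holds back Akt, read 7.77, 9.14 and 8.85 in REST shRNA arrays and 8.12, 9.26 and 8.04 in control arrays. It differed by 0.12 ± 0.46 (SE), with pairs of both signs. Perp, a membrane protein of desmosomes that p53 induces in apoptosis, read 4.53, 5.99 and 5.88 with REST shRNA and 6.04, 7.11 and 4.67 with control shRNA. Its pairs differed by -1.51, -1.12 and 1.21, the widest spread among the members, and its interval from -2.04 to 1.09 leaves the direction unsettled. Aen, a nuclease of apoptotic cells, was the only gene with positive differences on all of several probe sets, from 0.11 to 0.50 over 4 probe sets. The brightest read 9.13, 10.60 and 9.78 with REST shRNA, against 9.47, 9.96 and 9.57 with control shRNA, and REST shRNA array 2 was the high point. The dimmest read 4.59, 6.11 and 5.12, against 4.49, 5.14 and 4.69, and was higher in all 3 pairs, as were 12.2% of all probe sets. Without REST shRNA array 2 the brightest Aen probe set differed by -0.21, so its sign also rested on that array. The part of that array's low astrocyte marker sum in the Aen difference was not tested.

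**Figure D2:**
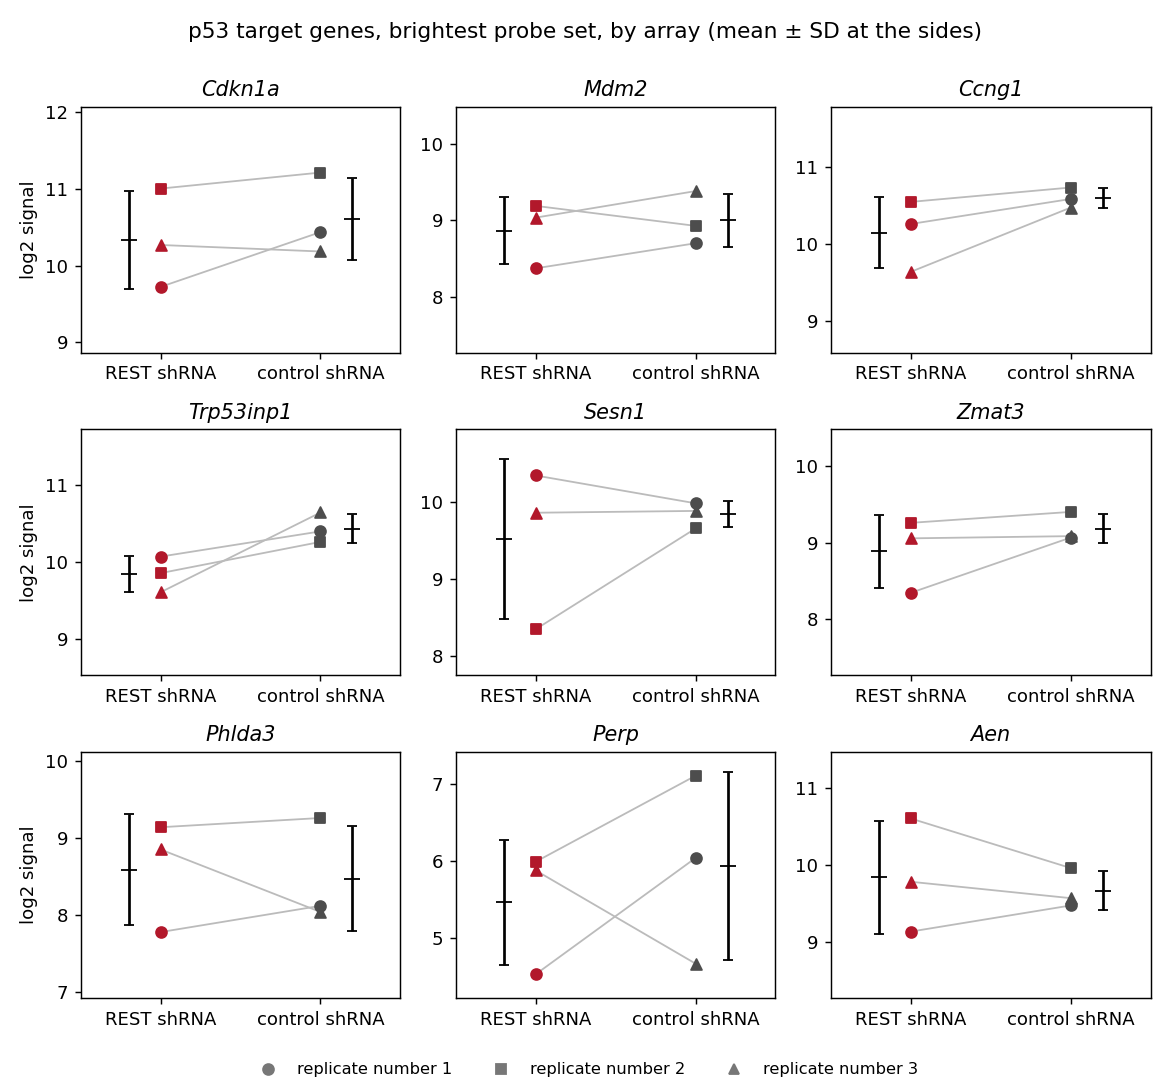
The log2 signal of the brightest probe set is plotted for each of the 9 genes in the 3 REST shRNA arrays (red, left) and the 3 control arrays (grey, right), with lines joining arrays of the same number and the mean ± SD at the sides. Every panel spans the same log2 range. Trp53inp1 is the gene whose groups do not overlap, and Sesn1 has 1 REST shRNA array far below the rest.

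For most of the 9 genes the replicate number held a larger share of the spread than the hairpin. The sum of squares of each gene over the 6 arrays was divided between the hairpin, the replicate number and a remainder, as a description without a test. The number has 3 levels and the hairpin 2, so with no effect of either the number would still tend to hold the larger share. The shares are therefore to be read beside those of all genes. The replicate number held 81.5% for Cdkn1a, 80.1% for Phlda3, 77.3% for Aen and 77.1% for Mdm2, and the hairpin held 7.71%, 1.03%, 3.53% and 4.41% of the same genes. Trp53inp1 was the reverse, with 74.1% for the hairpin and 4.46% for the number, and Ccng1 lay between, with 39.3% and 45.5%. The median over the 9 genes was 61.3% for the number and 7.20% for the hairpin, beside 44.9% and 10.2% over all 18194 genes. Mean levels of a pair were highest in the arrays numbered 2 for 6 of the 9 genes, beside 35.5% of all genes. An F test of the replicate number, in limma with the number as a block and added after the data were seen, called 3 of 45101 probe sets (0.00665%) and 0 of the 21. At an unadjusted p under 0.05 it marked 7 of the 21, beside 8.47% of all probe sets, and these were both probe sets of Cdkn1a, 3 of Aen, and 1 each of Phlda3 and Ccng1. What a number stands for (a litter, a culture or a day) is not given in the labels.

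**Figure D3:**
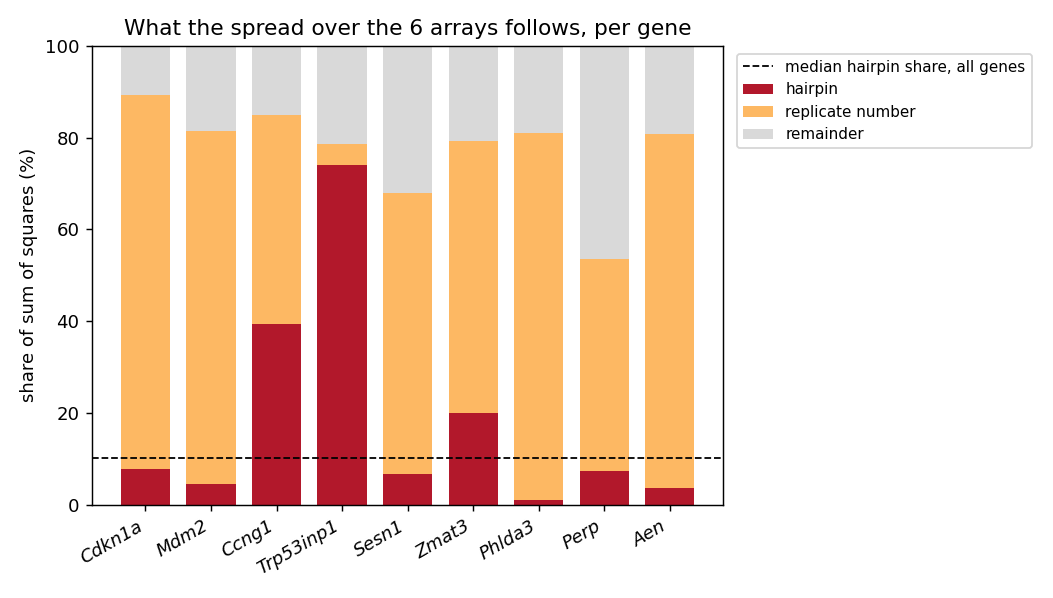
Bars show, for the brightest probe set of each gene, the percent of the sum of squares over the 6 arrays that goes with the hairpin, the replicate number and neither. The dashed line is the median hairpin share of all genes, 10.2%, which Ccng1, Trp53inp1 and Zmat3 exceed.

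The members did not vary as one group. Over the 6 arrays, which share hairpin and number, Cdkn1a correlated with Zmat3 (r = 0.884), Phlda3 (r = 0.876), Perp (r = 0.874) and Aen (r = 0.814). These 5 genes, and Mdm2, were lowest in REST shRNA array 1. Sesn1 ran opposite to Aen (r = -0.961, and -0.970 without REST shRNA array 2) and to Cdkn1a (r = -0.699). Ccng1 and Trp53inp1 correlated with each other at 0.678, and Trp53inp1 with Cdkn1a at -0.05. With the brightest Rest probe set the members ranged from -0.756 for Aen to 0.800 for Trp53inp1. The 5 genes whose levels were most like the mean of the members, among 12997 genes above background, were Mn1 and Alkbh3 (r = 0.982 each), Mapkapk3 (r = 0.978), Sod2 (r = 0.964) and Cybrd1 (r = 0.959), over 6 arrays. None of them was called between the groups, with differences from -0.39 to -0.12 and adjusted p of 1.00 each in limma.

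**Figure D4:**
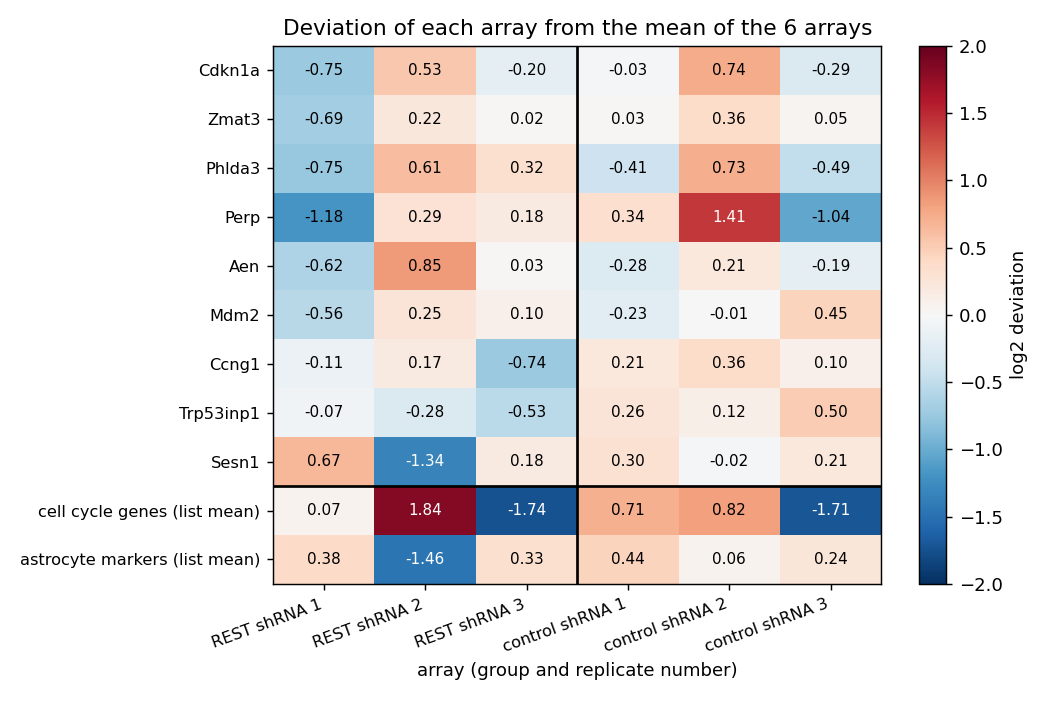
Each cell gives the log2 deviation of an array from the mean of the 6 arrays, for the 9 genes and for the means of 17 cell cycle genes and 9 astrocyte markers, with REST shRNA arrays left of the line. Cdkn1a, Zmat3, Phlda3, Perp and Aen are low in REST shRNA array 1, and Sesn1 is at -1.34 in REST shRNA array 2, where the astrocyte markers are at -1.46.

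The wider pathway gave the same absence of calls, with 0 genes past the adjusted threshold in each list (0% of all genes), and for single genes 1.04% of all genes were lower and 1.69% higher at an unadjusted p under 0.05. Of 53 other p53 targets 50 were measured, of which 0 passed the unadjusted threshold, and 34 of the 50 were negative, with a median of -0.10. The median was -0.19, -0.11 and 0.10 in pairs 1, 2 and 3. Those with the smallest p were Trp53i13, at -0.33 ± 0.19 (SE), and the death receptor Fas, at -0.33 ± 0.19; Fas lay close to background. When same-numbered arrays were fitted as blocks, 1 was lower and 1 higher at an unadjusted p under 0.05, beside 1.36% lower and 2.18% higher of all genes, and both, named after their values were seen, had an adjusted p of 0.998 in limma. They were Eda2r, a receptor of the TNF receptor family, at -0.72 ± 0.44 (SE without the block; unadjusted p 0.0356 with the block and 0.147 without), and Trp53i11 at 0.87 ± 0.61 (0.0463 and 0.196). Of 26 genes that encode p53, its relatives and regulators, 23 were measured, with 12 negative, a median of -0.02 and 0 past the unadjusted threshold. Trp53 itself was not analysed here. The p53 relative Trp73 differed by 0.43 ± 0.22 close to background, and Prkdc, the DNA-dependent protein kinase, by -0.51 ± 0.29, with an unadjusted p of 0.122, or 0.0409 with the replicate block (adjusted p = 0.998, limma). Mdm4, the partner of Mdm2 in holding p53 back, differed by -0.31 ± 0.27, with its other probe sets at -0.20, 0.15 and -0.01, the last 2 at or under background.

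The genes that p21 is known to repress through the cell cycle followed the replicate number. All 17 measured members had their highest pair mean in the arrays numbered 2, and the number held a median of 91.6% of their sum of squares. Their mean was 6.97, 8.74 and 5.15 in REST shRNA arrays, against 7.61, 7.72 and 5.19 in control arrays. Arrays numbered 3 were low in both groups. In pair 2 all 17 were higher with REST shRNA, and in pair 1 16 of 17 were lower. Cdkn1a itself was high in the arrays numbered 2, where these genes were high as well. The median difference between the groups was 0.03, and it was -0.88 without REST shRNA array 2, 1.03 without REST shRNA array 3 and -0.82 without control array 3. Of these genes 0 passed the unadjusted threshold. Ccne2, a cyclin of S phase entry, differed by 0.74 ± 0.49 (SE) and Mcm5, a subunit of the replication helicase, by 0.64 ± 1.17.

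Other families gave little. All 7 measured CDK inhibitors were negative, beside 42.8% of all genes, with a median of -0.35 and 0 past the unadjusted threshold. Their median was -0.40, -0.30 and 0.14 in pairs 1, 2 and 3, and 0 of the 7 were lower in all 3 pairs. Cdkn2a and Cdkn2b, inhibitors of Cdk4 and Cdk6, differed by -0.36 ± 0.25 (SE) and -0.35 ± 0.31. Of 17 BCL2 family genes 15 were measured, with 10 positive and a median of 0.10. The BH3-only gene Hrk differed by 1.11 ± 0.51, with an unadjusted p of 0.0673, or 0.0153 with the replicate block (adjusted p = 0.998, limma). With the block 2.18% of all genes were higher at an unadjusted p under 0.05. Hrk was higher in all 3 pairs, as were 2477 of 18194 genes. A second Hrk probe set differed by 0.24 and was not higher in pair 3 (-0.02). Bok, a relative of Bax, differed by 0.42 ± 0.36. Of 13 named relatives of the members, 1 was lower at the unadjusted threshold and 0 higher, beside 1.04% and 1.69% of all genes. This was Zmat1, a zinc finger gene of the Zmat3 family. It read 5.79, 4.82 and 5.72 in REST shRNA arrays, against 6.16, 5.92 and 6.65 in control arrays. Its groups did not overlap, and 2.65% of all genes were likewise lower without overlap. Its difference was -0.80 ± 0.32, with an unadjusted p of 0.0401 and an adjusted p of 1.00 in limma. Another relative, Zmat5, differed by 0.38 ± 0.23.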

How the data were processed

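The deposited values are log2 signals per probe set from 6 arrays, 3 per group. The log2 unit was read from their range, 1.00 to 14.2, and what the authors did for background, probe summary and normalization is not given in the sources used here. Sorted values of the arrays differed from their mean by 0.0224 on average, so no further scaling was applied, and a change of total RNA per cell would not show. Groups and numbers come from the sample titles. Whether samples came from separate cultures is not stated in the labels, so p-values cover the spread among these 6 arrays, possibly technical only, and the number of arrays limits precision.

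Names of probe sets come from the platform annotation, with gene numbers looked up in a RefSeq table (GRCm38.p6): 34958 had 1 gene, 932 several and 9211 were unlisted. No probe set with 1 gene was annotated to Bax or Trp53. limma 3.58.1 (R 4.3.3) was fitted to all 45101 probe sets with the group as sole term, two-sided, with Benjamini-Hochberg adjustment over all probe sets and a threshold of 0.05. A gene of a list was read by the probe set with the highest mean. Named genes were Rest, the members, Mdm4, the 2 list genes with the smallest p, and the 5 genes most correlated with the members' mean. The members and lists were chosen with earlier results of these data known. Of 201 entries in 13 lists 191 were matched.

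On 5 simulated tables of 45101 probe sets the test recovered 5.6% of probe sets changed 2-fold and 57.6% of those changed 4-fold, so a 2-fold change would mostly be missed. Deviations from group means of same-numbered arrays correlated at 0.117, 0.282 and 0.402, each over 0.1, and same-numbered arrays were therefore treated as pairs, on the basis of the titles and this check, although control array 1 had a higher correlation (0.231) with the second REST shRNA array. The replicate block, other scalings, a filter, other variance models and probe set choices, and leaving out arrays were the alternatives.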

Additional observations from a re-analysis of the deposited data

How the results depend on the processing

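No alternative gave a probe set past the adjusted threshold, over all probe sets, among the members or in the lists. With the replicate number as a block these counts stayed at 0, so the block changed no adjusted call. The members lower at an unadjusted p stayed at 2. Their median difference of -0.30 could not move, because in this balanced design the block changes the error and not the difference. At an unadjusted p under 0.05 the block moved list counts by single genes. Other p53 targets had 1 lower and 1 higher with the block against 0 and 0. The regulators of p53 had 1 lower against 0 and the BCL2 family 1 higher against 0. Over all genes 1.36% were lower and 2.18% higher with the block. The count of members lower at an unadjusted p was 1 with each array centred on its median, 1 with only probe sets above the bacterial controls, 1 with 1 probe set per gene, and from 0 to 4 when single arrays were left out (4 without REST shRNA array 2, 0 without REST shRNA array 3 or control array 3, and 1 without control array 1 or 2). It was 1, 1 and 0 without both arrays numbered 1, 2 and 3. The median over the members was -0.46 with array weights, -0.062 without both arrays numbered 1, and from -0.48 to -0.0039 when single arrays were left out.

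Signs turned for probe sets of Cdkn1a, Mdm2, Sesn1, Phlda3, Perp and Aen. With array weights Aen read -0.063, -0.018 and -0.0056 on its first 3 probe sets, Sesn1 0.0019, 0.30, 0.029 and 0.28 on its 4, and Phlda3 -0.12. The dimmest Sesn1 probe set read 0.0025 with arrays centred on the median. Without both arrays numbered 1, Perp read 0.047, the second Cdkn1a probe set 0.19 and the third Mdm2 probe set 0.13. Without both numbered 2, Aen read -0.063, -0.20 and -0.063, and Sesn1 0.17, 0.40, 0.18 and 0.16. Without both numbered 3, the dimmest Sesn1 probe set read 0.13 and Phlda3 -0.23. Leaving out single arrays gave -1.11 to 0.11 for Perp, -0.61 to 0.025 and -0.79 to 0.31 for Cdkn1a, -0.30 to 0.11 for the first and -0.33 to 0.19 for the third Mdm2 probe set, and -0.16 to 0.52 for Phlda3. For Aen it gave -0.21 to 0.53, -0.27 to 0.81 and -0.28 to 0.48. For Sesn1 it gave -0.74 to 0.26, -0.66 to 0.48, -0.99 to 0.22 and -0.28 to 0.23. The cause was not tested. Ccng1 and Trp53inp1 kept their sign on every probe set under all alternatives, and so did Zmat3 on its only one (-0.48 to -0.027). The second Mdm2 and the dimmest Aen probe set also kept theirs. Alternatives that change only the error or the probe sets kept could not turn a sign. Leaving out the pairs was added after seeing the data. Signal near background limits what the dimmest Sesn1 probe set can show.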
